A study of Mus musculus with 6 samples.

Results

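A pair of ΔTE starting populations was compared across all genes after culture: DN2b cells, which had already switched on Bcl11b when they were sorted, and DN2a cells, which had not. ΔTE mice carry the Del_TE genotype, in which the timing enhancer of Bcl11b is deleted on both copies, and both copies also carry a YFP reporter that reads out Bcl11b. All ΔTE cells of the comparison therefore share the deletion, and the reporter that was used to sort them is also present in the WT mice. The marrow came from mice of 2 to 4 months of age, of both sexes, and cells of 6 to 8 mice were pooled. Progenitors grown from this marrow were sorted as DN2a (CD44+CD25+Bcl11b-) or DN2b (CD44+CD25+Bcl11b+) and put back on OP9-DL1 stroma, a mouse bone marrow stromal line that presents the Notch ligand DL1, for 4 days. Their RNA was then read by sci-RNA-seq3, which marks the RNA of single fixed cells by successive rounds of barcoding in wells; the labels call it nuclear RNA.

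Members of the comparison were the cells of these 2 libraries that had at least 200 genes detected, at most 2000 unique molecular identifiers (UMIs, counted molecules) and at most 30% of UMIs on mitochondrial genes. This left 11594 ΔTE DN2a and 3401 ΔTE DN2b cells, 14995 of the 60671 cells of all 6 libraries. Each condition was 1 library. There was thus no replicate and no test, and every interval covers counting error only. Each library had passed through 3 reverse-transcription wells, which split 1 sample into technical parts and were used only to see whether a difference rested on 1 well.

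Bcl11b encodes a zinc finger factor that closes off NK and myeloid fates and commits DN2 progenitors to the T lineage, and its activation separates the DN2a from the DN2b stage. Innate lymphoid cells (ILCs), NK cells included, arise from related progenitors under factors such as Id2, an inhibitor of E proteins, and Zbtb16 (PLZF). Notch signalling, Tcf7 and Gata3 act before Bcl11b in the T programme.

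Both libraries were shallow per cell, with medians of 452 UMIs in DN2a and 426 in DN2b, and the files held 12998440 and 8007395 UMIs over all barcodes. No barcode occurred in both. The mitochondrial limit left out 26.8% of otherwise passing cells in DN2a and 56.6% in DN2b. Well 2 of ΔTE DN2a stood apart from the other wells. Its cells carried a median of 16.6% mitochondrial UMIs, against 22.4% and 24.5% in wells 1 and 3 and 23.2 to 24.7% in the DN2b wells, and 14.4% of its cells, thinned to 300 UMIs, had at least 2 UMIs of stromal marker genes, against 2.27% and 1.39% in the other DN2a wells. For several genes that were highest or lowest in that well, ratios without it are also given. Summed UMIs of 4 Y-linked genes were 211 CPM in DN2a and 160 CPM in DN2b, where CPM are UMIs scaled to the same library total.

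Few genes differed strongly. Of 8511 genes with at least 100 UMIs over both libraries, 65 (0.764%) were at least 2-fold higher in DN2b and 278 (3.27%) at least 2-fold lower. Counts of called genes within the lists below stand against these shares. When a difference that dropped under 1.5-fold without any 1 of the 6 wells was set aside, 63 genes (0.74%) remained higher and 175 (2.06%) remained lower. The higher genes included genes known from T cells, γδ T cells and ILCs, and the lower genes included progenitor, myeloid and fibroblast genes. The median log2 ratio of all tested genes was -0.05, and TMM scaling moved every ratio up by 0.07.

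**Figure D1:**
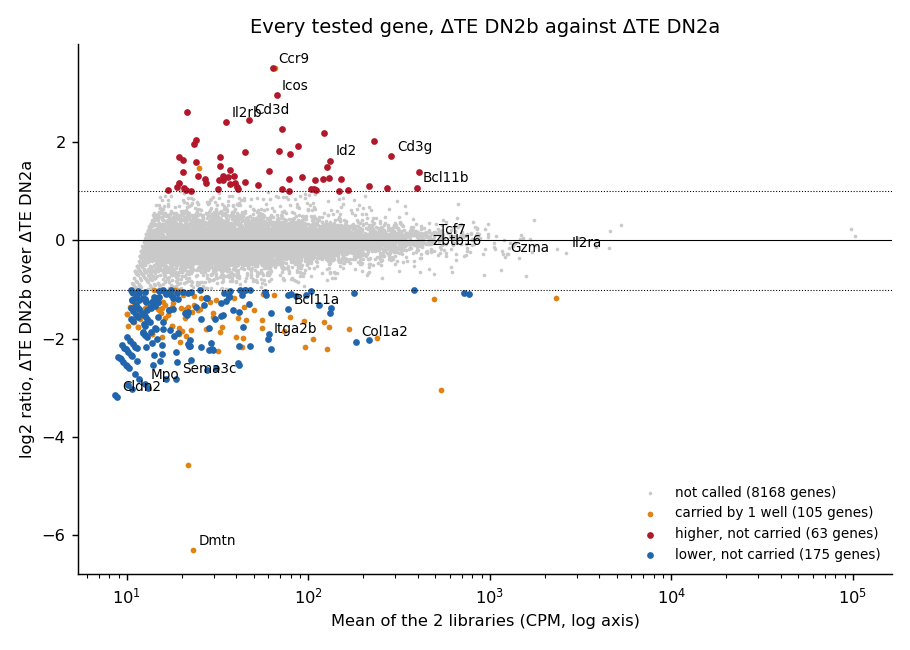
Each point is a tested gene, placed by its mean level in the 2 libraries (CPM, log axis) and its log2 ratio of ΔTE DN2b over ΔTE DN2a, with dotted lines at 2-fold. The 63 genes higher in DN2b that no single well carries are red, the 175 lower ones are blue and the 105 carried by 1 well are orange, while Tcf7, Zbtb16 and Il2ra lie near 0.

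Bcl11b itself remained higher in cells that had been sorted as DN2b. Its level was 284, 185 and 288 CPM in the 3 DN2a wells and 486, 546 and 593 in the DN2b wells. Every DN2b well thus lay above every DN2a well, and Bcl11b was also measured in all DN2a wells. The ratio of the libraries was 2.1-fold, or 1.07 on the log2 scale (95% interval 0.95 to 1.19). Without the low well 2 of DN2a the log2 ratio was 0.92, under the 2-fold limit. The sort had used the reporter of this gene 4 days earlier, so that its difference at the start was set by the gate. Bcl11b lies at chr12:107910403-108003602 on the minus strand (GENCODE M21, GRCm38).

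Of 14 tested genes of the T-cell receptor complex and its recombination, 5 were at least 2-fold higher in DN2b. The share over all tested genes was 0.764%. None was at least 2-fold lower, and the median log2 ratio was 0.62 against -0.05 for all genes. Cd3d, the δ chain of CD3, measured 13.2, 14.9 and 16 CPM in the DN2a wells and 86.9, 81.2 and 69 in the DN2b wells. The wells were far apart, and the difference came to 5.5-fold (log2 2.46, 2.07 to 2.86). Cd3g, the γ chain, was at 129, 154 and 120 CPM in DN2a wells and 471, 474 and 370 in DN2b wells, a log2 ratio of 1.71 (1.57 to 1.85). Dntt, the terminal transferase that adds bases at receptor junctions, was 3.53-fold higher. The other called members were Cd28, a costimulatory receptor (log2 1.81), and Cd247, the ζ chain (log2 1.07).

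The remaining T-cell receptor genes differed less or were too rare. Cd3e gave 79 and 36 UMIs with overlapping wells, Rag1 a log2 ratio of 0.50 and Rag2 one of -0.17. Lck, the kinase of the CD4 and CD8 coreceptors, was level at 0.04. Ptcra, the pre-T-cell receptor α chain, had 6 UMIs in DN2a and 9 in DN2b, too few to compare. Zap70 had 2 and 4 UMIs. Cd4, Cd8a and Cd8b1 were seen in under 15 cells of the series.

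Cd3g and Cd3d lie head to head on chromosome 9, on opposite strands and 1355 bases apart. Their RefSeq promoters (GRCm38.p6, 250 bases before and 50 after the start of the gene, 5′ to 3′ on the strand of the gene) are shown because both genes of this neighbouring pair were called, and that of Bcl11b because the sort was made on its activity. Capitals mark letters shared with TGTGGT, bound by RUNX factors, CTTTGA, bound by TCF and LEF factors, or AGATAA, bound by GATA factors, on either strand.
Cd3d, chr9:44981536-44981835, plus strand: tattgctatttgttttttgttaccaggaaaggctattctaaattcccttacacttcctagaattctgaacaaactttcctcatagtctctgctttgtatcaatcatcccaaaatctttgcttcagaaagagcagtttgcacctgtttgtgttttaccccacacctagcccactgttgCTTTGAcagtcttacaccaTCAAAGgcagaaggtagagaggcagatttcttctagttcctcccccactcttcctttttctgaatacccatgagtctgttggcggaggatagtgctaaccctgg
Cd3g, chr9:44980382-44980681, minus strand: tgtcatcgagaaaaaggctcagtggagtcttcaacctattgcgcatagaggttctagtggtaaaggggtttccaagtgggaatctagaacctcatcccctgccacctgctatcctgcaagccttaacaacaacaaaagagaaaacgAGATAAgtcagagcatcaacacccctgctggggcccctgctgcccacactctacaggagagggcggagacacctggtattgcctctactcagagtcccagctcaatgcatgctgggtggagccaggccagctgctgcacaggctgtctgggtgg
Bcl11b, chr12:108003365-108003664, minus strand: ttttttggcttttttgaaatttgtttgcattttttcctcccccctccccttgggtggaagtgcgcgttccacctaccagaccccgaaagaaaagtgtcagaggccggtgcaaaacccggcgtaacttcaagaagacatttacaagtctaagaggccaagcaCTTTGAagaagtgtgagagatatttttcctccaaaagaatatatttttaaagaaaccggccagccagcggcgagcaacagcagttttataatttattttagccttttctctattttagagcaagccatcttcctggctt
The Cd3d window held CTTTGA 2 times, the Cd3g window AGATAA 1 time and the Bcl11b window CTTTGA 1 time, and TGTGGT was in none of them. None of these motifs overlapped another. Windows of Ccr9 and Id2, also read but not shown, held none of these letters, and that of Cd163l1 held AGATAA 1 time. Of the 32851 promoters in the table, 16.8% held TGTGGT, 16% CTTTGA and 11.2% AGATAA. Windows were matched for 46 of the 63 higher genes, and 17.4%, 19.6% and 15.2% of them held these letters, against 11.8%, 11.5% and 5.67% of 6840 promoters of tested genes and 12.2%, 9.92% and 7.63% of 131 promoters of lower genes. These shares describe 8, 9 and 7 of the higher genes.

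Genes known from γδ T cells had the highest summed ratio of the lists, with a log2 ratio of 1.88 (1.76 to 2). Of 10 genes, 6 were in the files, without the receptor genes Tcrg-C1, Tcrg-C2, Tcrg-C4 and Trdc, which were not found under these symbols. Of the 6, 4 reached 100 UMIs. Of these 4, 3 were called higher, and the fourth, Blk, a kinase of the Src family, had a log2 ratio of 0.77. Cd163l1, a scavenger receptor with cysteine-rich domains, stood at 95.3, 67 and 113 CPM in the DN2a wells against 386, 370 and 354 in the DN2b wells (log2 2.02, 1.85 to 2.18). Its neighbour 5830411N06Rik, of the same receptor family and 16139 bases away on chromosome 7, was at 53.6, 34.3 and 37.8 against 209, 193 and 198 (log2 2.18, 1.95 to 2.42). For both genes every DN2b well was above every DN2a well. The 2 genes are related in sequence, and how reads that match both were counted is not given in the sources used here, so their split is uncertain. Sox13, a factor of γδ T cells, was 2.21-fold higher. The summed list was 177 CPM in DN2a and 653 in DN2b, where Cd163l1 made up 371 and 5830411N06Rik 200. Il17a and Il23r were seen in under 15 cells.

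ILC and NK genes were split. Of 10 tested transcription factors of these lineages, 4 were at least 2-fold higher and 1 lower, against 0.764% and 3.27% of all tested genes. Id2 measured 58.7, 71.4 and 67.2 CPM in DN2a wells and 209, 196 and 189 in DN2b wells, a 3.08-fold difference (log2 1.62, 1.41 to 1.84). Maf (log2 1.49), Tox2 (log2 1.24) and Rora, a nuclear receptor needed by ILC2 cells (log2 1.26, 1.06 to 1.47), were higher with wells that did not overlap. In the cells left out for mitochondrial content Rora was level, at 0.03, and Maf was at 0.43, while Id2 was at 1.20 and Tox2 at 0.90. Zeb2, a factor of effector lymphocytes and myeloid cells, was lower at -1.11. Zbtb16 did not differ by this rule. Its wells were at 567, 302 and 543 in DN2a and 282, 508 and 489 in DN2b, so that 1 well of each library was low. The log2 ratio was -0.21 (-0.33 to -0.09), or 0.04 without DN2b well 1. In the cells left out for mitochondrial content Zbtb16 was lower, at -0.50 (-0.66 to -0.33). In WT it was at -0.27, with every DN2b well below every DN2a well. Eomes was seen in under 15 cells, Tbx21 gave 10 and 6 UMIs, and these defining factors of NK cells and ILC1 cells could not be compared.

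**Figure D2:**
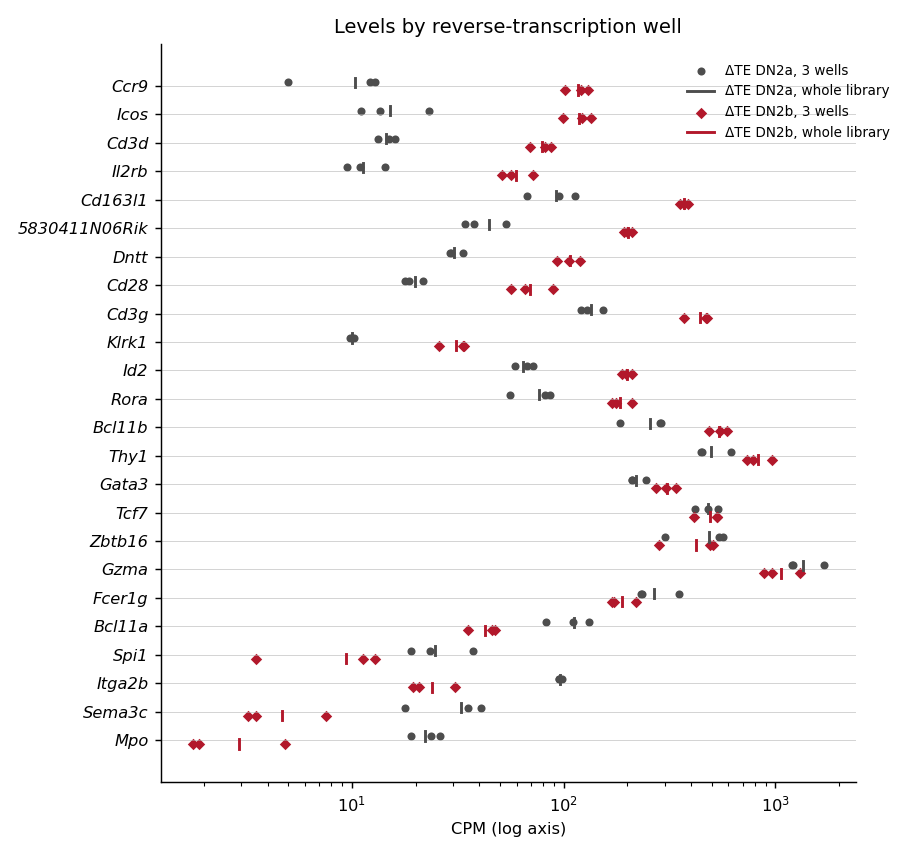
Levels of 24 genes in CPM (log axis) in each of the 3 wells of ΔTE DN2a (grey circles) and ΔTE DN2b (red diamonds), with a bar for the whole library. From Ccr9 down to Gata3 every DN2b well lies above every DN2a well, Tcf7, Zbtb16 and Gzma overlap, and for Fcer1g and from Bcl11a down to Mpo every DN2b well lies below.

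Surface receptors of ILCs and NK cells included some of the largest differences. Icos, an inducible costimulator carried by activated T cells and ILC2 cells, was at 13.6, 11.1 and 23.1 CPM in DN2a wells and 99.8, 123 and 135 in DN2b wells, a 7.78-fold difference (log2 2.96, 2.60 to 3.33). Il2rb, the β chain of the IL-2 and IL-15 receptors, was 5.29-fold higher (log2 2.40, 1.95 to 2.86). Both genes had no overlap between wells. A list of NK and ILC1 receptors, which held neither gene, had 7 tested members, 4 of them above 0. Of the 7, 3 were at least 2-fold higher and 1 lower, against 0.764% and 3.27% of all tested genes. The summed list was at 0.33 (0.21 to 0.44) in ΔTE, 0.07 in the cells left out for mitochondrial content and -0.39 in WT. Klrk1, which encodes the activating receptor NKG2D, measured 9.84, 9.96 and 10.2 in DN2a wells and 25.7, 34 and 33.6 in DN2b wells (log2 1.63, 1.08 to 2.18). Klrd1 (CD94), 11548 bases from it on chromosome 6, had a log2 ratio of 1.69 with overlapping wells. Cd226, an adhesion and activating receptor, was just past the limit at 1.04. Itga1, the integrin α1 chain, was lower at -1.66, with 37.6 CPM in DN2a well 2 against 13.9 and 12.2 in the other DN2a wells. Its log2 ratio was -1.05 without well 2 and -0.18 in the cells left out for mitochondrial content.

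Effector genes were mostly too rare to call. None of the 6 tested genes of cytotoxic granules and chemokines passed 2-fold in either direction, a count that the low share of calls over all genes would also give. Gzma, granzyme A, was at 1200.3, 1696 and 1210.2 CPM in DN2a and 1302, 965 and 885 in DN2b (log2 -0.34). The highest value was again in DN2a well 2, and the log2 ratio was -0.18 without it. Gzmb was at 0.69 and Nkg7 at 0.11. Of the ILC2 list only Icos and Il17rb (log2 0.36) reached 100 UMIs. The summed ILC2 list was at 127 and 281 CPM (log2 1.15, 0.98 to 1.31), of which Icos alone made up 15.2 and 118. Il13 gave 2 and 8 UMIs, Il1rl1 3 and 0, and Areg, Il5, Arg1 and Klrg1 were seen in under 15 cells. Some genes below the minimum of 100 UMIs, named after their values were seen, had every DN2b well above every DN2a well. That held for 4.89% of tested genes, and its share among genes under the minimum was not counted. Cxcr6 gave 5 UMIs in DN2a and 23 in DN2b, or 0.792 and 13.4 CPM (log2 4.08, 2.65 to 5.83). Il9r was at 4.91 and 20.4 CPM on 31 and 35 UMIs (log2 2.06, 1.32 to 2.80), and Xcl1 at 6.33 and 27.4 CPM on 40 and 47 UMIs (log2 2.11, 1.47 to 2.76).

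Upstream regulators of the T programme were largely level. Of 13 tested T-lineage factors, Bcl11b and Lef1, a partner of Tcf7 in DNA binding (log2 1.24, 0.97 to 1.51), were called. Tcf7 was at 483, 538 and 418 CPM in DN2a and 529, 529 and 411 in DN2b (log2 0.02, -0.09 to 0.13). Gata3 reached 0.48 with DN2b wells all above, Ets1 0.95, Runx1 -0.21 and Runx2 0.03. Ikzf3 had 43 and 49 UMIs and was not tested. Of 9 tested Notch receptors and targets, Dtx1, which encodes Deltex1, was called (27.2 and 61.8 CPM, log2 1.18), while Notch1 was at 0.20, Hes1 at 0.17 and Il2ra, which encodes CD25, at -0.25. Only 4 of the 9 were above 0, with a median of -0.25. The summed Notch list was at -0.18 (-0.23 to -0.14) in ΔTE and -0.24 in WT. Thy1, a surface glycoprotein of thymocytes, was 1.68-fold higher (log2 0.75, 0.65 to 0.84) and Kit, the stem cell factor receptor, was the same in both libraries at 209 CPM.

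The largest single ratio among genes not carried by 1 well belonged to Ccr9, a chemokine receptor used to enter the thymus and the gut. Its wells were at 12.2, 4.98 and 12.8 CPM in DN2a and 101, 121 and 131 in DN2b, an 11.4-fold difference (log2 3.51, 3.10 to 3.94). The annotated Ccr9 gene, chr9:123678439-123784330, contains Lztfl1 on the opposite strand, and Lztfl1 was also called (log2 1.30, 1.05 to 1.55). The strand setting of the counting is not given in the sources used here, so the split of reads between the pair is uncertain. Itgae, an integrin chain that binds E-cadherin, was called at 1.04, while Itga4, another integrin chain of homing, was at -0.17.

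Among genes outside the lists, Chd7, a chromatin remodeller, was at 27.8, 14.9 and 28.8 CPM in DN2a wells and 108, 113 and 135 in DN2b wells (log2 2.28). St3gal6, a sialyltransferase, Rab27b, a GTPase of secretory vesicles, and Plcl1 were at 2.04, 1.97 and 1.93. Further list members were also called. Of 9 tested costimulatory and TNF family genes, 2 were called higher, Tnfrsf9 (4-1BB, log2 1.77) and Pdcd1 (PD-1, log2 1.05). Of 9 tested surface markers of early thymocytes, 2 were called higher, Ly6d (log2 1.40) and Cd7 (log2 1.25). The share over all tested genes was 0.764%. From the myeloid list the chemokine receptor Ccr2 (log2 1.11) was called.

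Genes of early progenitors were lower where they differed. Of 11 tested stem and progenitor genes, 4 were at least 2-fold lower, against 3.27% of all tested genes. None was at least 2-fold higher, and the median was -0.67. Bcl11a, a zinc finger factor of lymphoid progenitors and B cells, was at 131, 82.5 and 110 CPM in DN2a wells and 35.4, 47.2 and 46 in DN2b wells (log2 -1.40, -1.77 to -1.05). Spi1, which encodes PU.1, measured 19, 23.2 and 37.1 against 12.9, 11.3 and 3.54 (log2 -1.41, -2.25 to -0.66). Mycn was at -1.53. All 3 had wells that did not overlap. Cd34 was at -1.01 with overlapping wells and -0.64 without DN2b well 2, and Mef2c, a progenitor factor with 44 and 11 UMIs, could not be compared. Itga2b (CD41), an early haematopoietic and megakaryocyte integrin, was at 94.7, 98 and 94.8 in DN2a and 30.6, 20.8 and 19.5 in DN2b, 4-fold lower (log2 -2.00, -2.49 to -1.54).

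Myeloid genes did not all move one way, and Ccr2 set the direction of their sum. The 16 genes of the list summed to 246 CPM in DN2a and 343 in DN2b (log2 0.48, 0.34 to 0.62). Ccr2, called higher, made up 137 and 296 of this. The 12 myeloid markers, which leave out Ccr2, summed to 96.1 and 46.6 CPM (log2 -1.04, -1.40 to -0.71). Of the 3 tested members of the list, 1 was called higher and 1 lower. Mpo, myeloperoxidase of granulocyte precursors, stood at 19, 26 and 23.7 CPM in DN2a wells and 4.83, 1.89 and 1.77 in DN2b wells, but the latter were 5 UMIs in all (log2 -2.93, -4.57 to -1.67). Csf1r, the receptor for M-CSF, gave 16 UMIs in DN2a and 0 in DN2b, where a count of 0 allows up to 1.75 CPM against 2.53 measured in DN2a. Fcgr3 gave 48 UMIs and 1 UMI, Cd300a 43 and 1, and Cebpa 33 and 0, with 15.5 CPM of it in DN2a well 2 and at most 1.36 in the others. The 5 MHC class II genes had 149 UMIs together in DN2a and 5 in DN2b, 23.6 and 2.91 CPM, but their log2 ratio was 0.05 in the cells left out for mitochondrial content.

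Further lower genes outside the lists had wells that did not overlap. Ncf1, a subunit of the phagocyte NADPH oxidase, was at -1.45 (-2.19 to -0.78). Tbxas1, thromboxane synthase, measured 51.2, 39.9 and 48.7 CPM against 4.83, 9.44 and 8.85 (log2 -2.64). Sema3c, a secreted semaphorin, was at 40.7, 17.7 and 35.2 against 3.22, 7.55 and 3.54 (log2 -2.81). Cd180, a Toll-like receptor homologue, was even among wells at 37.3, 38.2 and 38.4 against 8.05, 5.66 and 7.08 (log2 -2.44). Cldn2, a claudin, had the lowest ratio of all genes not carried by 1 well, -3.18, on 100 and 3 UMIs (-5.48 to -1.59). Syk and Lyn, kinases that act with ITAM adaptors, were at -0.92 and -0.84, and of the adaptors Fcer1g was at -0.50 and Tyrobp (DAP12) at -0.65. None of the 6 tested genes of that list passed 2-fold, a count that the low share of calls over all genes would also give.

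In ΔTE, lower values of fibroblast genes rested largely on DN2a well 2. All 12 tested stromal genes were called lower, 8 of them carried by 1 well. Col1a2, a collagen I chain, was at 128, 744 and 85.8 CPM in DN2a wells and 129, 28.3 and 46 in DN2b wells. The value of well 2 was thus several times that of any other, and the wells overlapped. The log2 ratio of Col1a2 was -2.06 with that well and -0.68 without it. Summed over the 10 stromal markers the wells were at 464, 2742 and 298 in DN2a and 539, 132 and 209 in DN2b, and the log2 ratio went from -1.82 to -0.42 without well 2. In cells over the mitochondrial limit it was -0.04, and with no mitochondrial limit it turned to 0.22. Of the 103 lower genes that 1 well carried, 94 rested on this well. Of the 15 lowest genes in the named set, Pdgfra, Ebf3, Gpx8, Efemp1, Adamts5, Nid1, Rbfox2, Dclk1, Bmp1, Gulp1 and Kank2 all had their highest value in DN2a well 2, at 35.4 to 128 CPM, and were at -0.62 to 0.31 in the cells over the limit. Without that well their log2 ratios in the analysed cells were -2.16 to -1.19. In WT the stromal markers were lower in DN2b without resting on 1 well. They were at 1963, 1895 and 1746 CPM in the WT DN2a wells and 280, 571 and 875 in the WT DN2b wells (log2 -1.50). OP9-DL1 cells are themselves stromal, and the part of carried-over stroma in these ratios was not tested. As bulk sums of a culture, the ratios cannot tell fewer cells of a type from less RNA per cell.

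**Figure D3:**
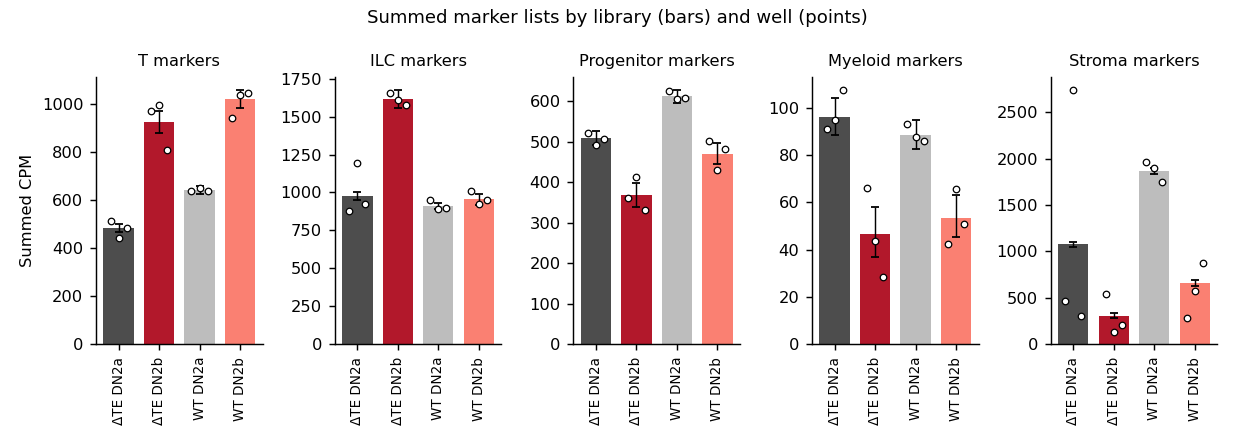
Summed CPM of 5 marker lists in the 2 ΔTE and 2 WT libraries, with bars for libraries, exact Poisson 95% intervals for counting error, and open points for the 3 wells. T markers are higher in DN2b in both genotypes, and ILC markers differ in ΔTE (978 against 1616) and little in WT (910 against 956). The stromal panel shows DN2a well 2 of ΔTE at 2742 and the WT DN2a wells at 1746 to 1963.

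A few large ratios came from 1 well alone. Dmtn gave 98 CPM in DN2a well 1 and at most 1.77 in each other well, Mir6236 gave 88.5 in the same well, and Lars2, a mitochondrial leucyl-tRNA synthetase, 1875 there against 97.3 to 194 elsewhere. Zfp318 was at 372 in DN2b well 2 and at 6.4 to 12.2 elsewhere, so that its log2 ratio of 3.50 became -0.48 without that well. Il1rn, the antagonist of the IL-1 receptor, and Fbn1, a microfibril protein, rested on DN2a well 2 (148 and 80.3). Their log2 ratios of -2.25 and -1.85 became -0.40 and -0.45 without it. These ratios rest on 1 technical part of a library and were set aside.

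Cell cycle genes differed by small amounts. Of 16 G2/M genes 15 were above 0, with a median log2 ratio of 0.20 and none past 2-fold, from Anln at -0.31 to Cenpf at 0.55. The 16 S-phase genes had a median of -0.02. Of 80 tested ribosomal protein genes 57 were above 0, with a median of 0.07, though their summed level in DN2a well 2 was 33961 CPM against 18660 and 19933 in the other two wells. Genes of survival and death (6 tested, median -0.04) and the GIMAP family (5 tested, median -0.11) had no member past 2-fold. The low share of calls over all genes would also give none in lists this short.

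The wells gave a further view of these counts. Every DN2b well lay above every DN2a well in 416 of all tested genes (4.89%) and below in 695 (8.17%). Among the 63 higher genes not carried by 1 well, 62 had wells apart, and among the 175 lower ones 121 had, but this measure uses the same UMIs as the ratio that chose them. Cells that the mitochondrial limit had left out, 4240 of DN2a and 4441 of DN2b, share no UMI with the analysed cells, though they come from the same cultures. In them 62 of the 63 higher genes were again higher, 35 at least 2-fold, with a median of 1.18. Of the 175 lower genes 162 were again lower, but 46 at least 2-fold, with a median of -0.47. All tested genes had a median of 0.01 there, with 51.3% above 0.

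**Figure D4:**
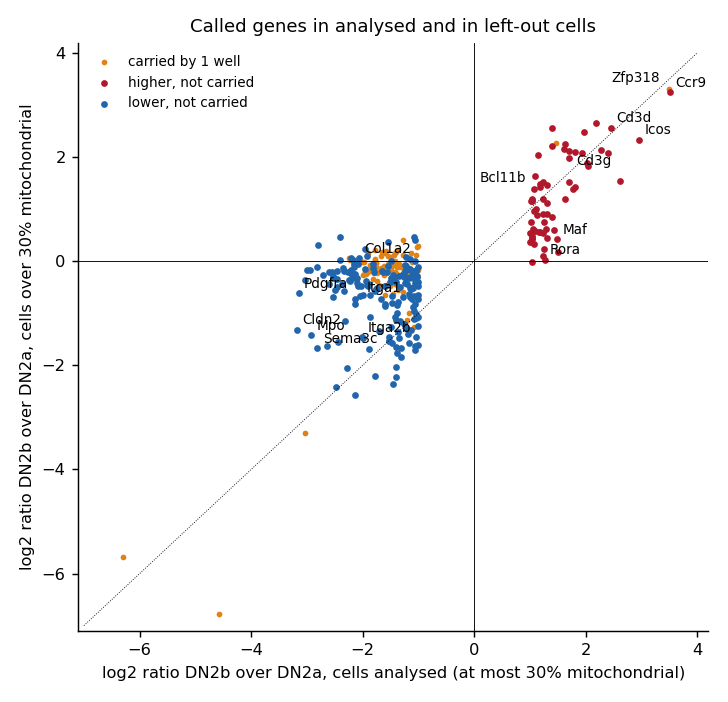
Called genes by their log2 ratio of ΔTE DN2b over DN2a in the analysed cells (horizontal) and in the cells over 30% mitochondrial UMIs (vertical), with the line of equality dotted. Red higher genes such as Ccr9, Icos and Cd3d lie near the line, while blue and orange lower genes form a band near 0 with Pdgfra and Col1a2 and a second group, with Itga2b, Sema3c and Mpo, that stays lower.

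Under 13 settings together, which covered the main one, TMM scaling, 3 other choices of mitochondrial content, thinning, no cells with a stromal marker, and each well left out, 23 of the 63 higher and 28 of the 175 lower genes stayed at least 2-fold. These settings were picked after the values were seen. The 23 included Ccr9, Icos, Il2rb, Cd3d, Cd3g, Dntt, Cd28, Id2, Lef1, Klrk1, Cd163l1, 5830411N06Rik, Ly6d, Tnfrsf9, Chd7, St3gal6, Rab27b and Plcl1. The 28 held no gene of the stromal list and included Bcl11a, Spi1, Mycn, Mpo, Itga2b, Ncf1, Tbxas1, Cd180, Sema3c and Cldn2, together with Hbb-bt, a β-globin gene at 347 and 85.7 CPM.

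In WT the same contrast can be set beside it, from 2 other libraries that share no cells with these. There 29 of 9528 tested genes were at least 2-fold higher in DN2b (0.304%) and 478 lower (5.02%), and the WT DN2a library stood apart by a median of 13.3% mitochondrial UMIs. Of the 63 genes higher in ΔTE, 59 had the same direction in WT and 26 were at least 2-fold. Of the 175 lower genes, 171 had the same direction and 104 were at least 2-fold. All genes tested in WT had a median log2 ratio of -0.18, so the WT contrast leaned lower as a whole. Ccr9 was at 3.36 in WT and 3.51 in ΔTE, 5830411N06Rik at 2.17 and 2.18, Bcl11a at -1.35 and -1.40, and Sema3c at -2.89 and -2.81. Icos was at 2.61 and 2.96, and Cd163l1 at 1.61 and 2.02. Differences between the genotypes in these ratios have no test.

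Some ratios were higher in ΔTE. Bcl11b was at 1.07 in ΔTE and 0.68 in WT, where both libraries held more of it (535 and 856 CPM against 256 and 540). Cd3d was at 2.46 and 1.26, Cd3g at 1.71 and 0.78, Id2 at 1.62 and 0.74, Il2rb at 2.40 and 1.34, and Cd7, a surface protein of T and NK cells, at 1.25 and -0.12. After the 4 days of culture the WT DN2a library was higher for Cd3d and Cd3g, with 35.7 and 309 CPM against 14.4 and 134 in ΔTE DN2a. For Id2 and Il2rb the ΔTE DN2b library was the highest of the 4. The summed ILC markers followed the same pattern, with a log2 ratio of 0.72 (0.66 to 0.79) in ΔTE and 0.07 in WT. The ΔTE ratio was 0.26 with no mitochondrial limit and 0.32 in the left-out cells, and that limit had removed 26.8% and 56.6% of the ΔTE DN2a and DN2b cells but 2.59% and 40.9% of the WT ones. Its part in the genotype values was not tested.

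Other ratios were lower in WT. Tyrobp was at 71 CPM in DN2a and 11.4 in DN2b of WT (log2 -2.64) against 109 and 69.9 in ΔTE, Fcer1g was at -1.41 in WT, and Itga2b at -3.29. Raph1 (log2 0.24 in ΔTE and -1.72 in WT), Pgghg (0.35 and -1.17), Tent5a (1.24 and -0.78) and Cdkn2c (0.72 and -0.80) also had lower ratios in WT, while Wdfy3 (-2.33 and -0.78), Adamts5 and Mrc2 (-2.40 and -0.90) had lower ratios in ΔTE. Wdfy3, Adamts5 and Mrc2 all had their highest value in DN2a well 2, and their ΔTE ratios were -1.98, -1.19 and -0.93 without it.

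**Figure D5:**
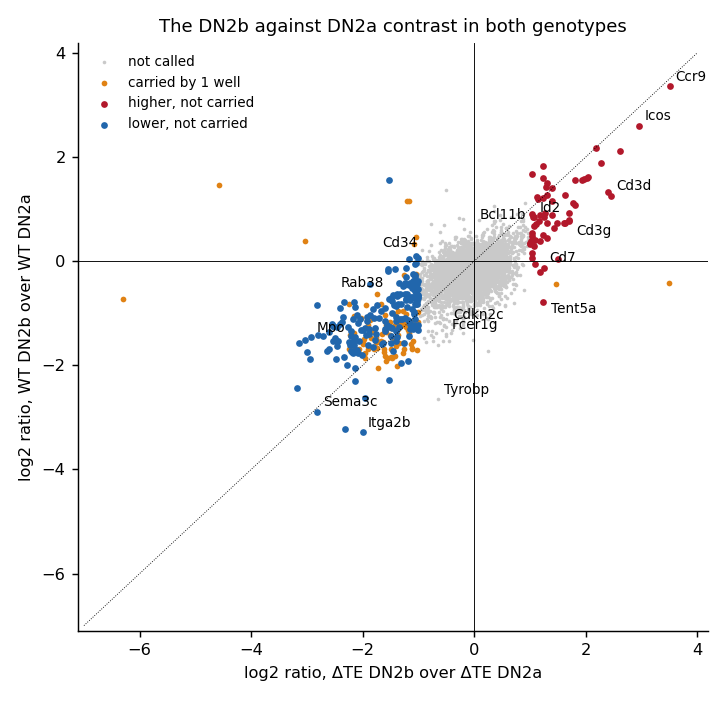
Every gene tested in ΔTE by its log2 ratio of DN2b over DN2a in ΔTE (horizontal) and in WT (vertical), with the line of equality dotted. Ccr9 and Icos lie close to that line, Cd3d, Cd3g, Id2 and Cd7 lie below it, and Tyrobp is at -0.65 and -2.64.

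Shares of marked cells followed the summed lists. With each cell thinned to 300 UMIs, which left out 1471 DN2a and 462 DN2b cells, T markers reached 2 UMIs in 2.22% of DN2a cells (exact 95% interval 1.94 to 2.53) and 4.90% of DN2b cells (4.15 to 5.74). ILC markers did so in 4.86% (4.45 to 5.30) and 10.2% (9.10 to 11.3), and progenitor markers in 1.39% and 0.817%. The intervals for T and ILC markers did not meet, and each DN2b well was above each DN2a well. Both cover only counting error and technical parts of 1 library per condition. The summed ILC marker ratio was 0.72 under the mitochondrial limit and 0.26 with no limit. Without thinning the shares were 5.41% and 10.5% for T markers and 10.9% and 17.6% for ILC markers. Cells with stromal markers, which should lack these genes, gave a background of 0.172% for T markers and 1.03% for ILC markers in DN2a (1 and 6 of 582 thinned cells, with a median depth of 573.5 UMIs before thinning against 493 for all cells). Another 9.45% of DN2a and 16.2% of DN2b cells had exactly 1 T marker UMI, so the class has no sharp edge. Cells past the limit for both lists numbered 14 in DN2a and 11 in DN2b.

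Within the marked cells, genes that are on neither list also differed. Among the 627 DN2a and 356 DN2b cells with at least 2 T marker UMIs, Id2 was at 47.5 and 195 CPM (log2 2.04, 1.25 to 2.87), Ccr9 at 9.04 and 112 on 4 and 24 UMIs (3.63, 2.09 to 5.61) and Bcl11b at 445 and 707 (0.67, 0.35 to 0.98). Zbtb16 was lower there, at 599 and 265 (-1.17, -1.61 to -0.76), and Cd163l1 was at 197 and 279 (0.51, 0.01 to 1.00). Among the 1260 and 598 cells with ILC marker UMIs, Zbtb16 was at 709 and 838 (0.24, 0.04 to 0.44), Id2 at 184 and 572 (1.63), Gata3 at 354 and 644 (0.86) and Cd163l1 at 123 and 558 (2.19, 1.84 to 2.54). In the 734 DN2a cells with stromal markers, which should lack them, Bcl11b was at 54.5 and Zbtb16 at 95.4 CPM, and Ccr9 had 0 UMIs. In cells with no marker of T, ILC, myeloid or stromal cells, 5447 of DN2a and 1325 of DN2b, Ccr9 was still at 3.42, Cd163l1 at 1.99 and Bcl11b at 1.10, but Cd7 was at -0.07 and Zbtb16 at -0.63.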

How the data were processed

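The authors deposited raw UMI counts per gene and cell barcode, made before any filter on cells. Their processing notes name the mm9 build, and the aligner is not given in the sources used here. Cells were kept that had 200 or more genes, no more than 2000 UMIs and up to 30% of UMIs on genes starting with mt-, and their counts were summed per library and well and divided by the total to give CPM, UMIs scaled to the same total. No doublet caller was run. With 1 library per condition no test was made: genes with at least 100 UMIs over both libraries were called at 2-fold, and a call was set aside as carried by 1 well where leaving out any 1 well brought it under 1.5-fold. Intervals are exact Poisson or binomial at 95% and cover counting error only. A count of 0 allows 3 counts, 0.475 CPM in DN2a and 1.75 in DN2b.

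Named genes were the called members with the largest ratios in each list, whether or not 1 well carried them. Added were the 15 highest and 15 lowest ratios among called genes not carried by 1 well, and genes central to the study. The widest gaps between genotypes and the largest ratios carried by 1 well completed the set. Genes outside that rule were named after their values were seen. The comparison and the lists were chosen with earlier results of these data known. Coordinates came from GENCODE M21 by gene identifier. Python 3.11.15, pandas 2.3.3, scipy 1.17.1 and, for TMM factors only, edgeR 4.0.16 were used, and the calling was tested on simulated data. Alternatives changed scaling, filters, thinning, marker limits and the wells used. A few genes of the lists and of the named set are not reported here.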

Additional observations from a re-analysis of the deposited data

Results flagged for a closer look

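The ratio of DN2b over DN2a ran in opposite directions in the 2 genotypes, by at least 1.5-fold in each, for Tent5a and Cdkn2c. Tent5a had a log2 ratio of 1.24 in ΔTE (12.6, 26 and 10.9 CPM in DN2a wells, 37, 41.5 and 35.4 in DN2b wells) and -0.78 in WT. Cdkn2c, an inhibitor of cyclin-dependent kinases, had 0.72 in ΔTE, with overlapping wells, and -0.80 in WT. With 1 library per condition the difference between genotypes was not tested.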

How the results depend on the processing

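Against 65 higher and 278 lower genes, the counts were 519 and 1959 with no minimum of UMIs, 28 and 81 with at least 300 UMIs, 213 and 650 at 1.5-fold, and 43 and 113 with no mitochondrial limit. Lower genes numbered 151 at a limit of 20% mitochondrial UMIs, 107 without cells with a stromal marker and 127 after thinning. Leaving out 1 well gave 56 to 74 higher and 85 to 349 lower genes, the 85 without DN2a well 2. Bcl11b was at 0.95 with no mitochondrial limit and at 0.92 to 1.21 with 1 well left out. The summed ILC markers were at 0.79 with TMM, 0.62 at the 20% limit, 0.26 with no limit and 0.60 to 0.86 with 1 well left out. T markers were at 0.82 with at least 300 genes per cell. Stromal markers were at -2.42 at the 20% limit, 0.22 with no limit and -2.65 to -0.42 with 1 well left out, progenitor markers at -0.64 with no limit, and myeloid markers at -1.43 to -0.79 with 1 well left out. Log2 ratios of shares were 1.49 for T markers at 3 UMIs; 0.69 unthinned, 0.42 at 1 UMI and 1.48 at 3 UMIs for ILC markers; -1.24 at 1 UMI for stromal and -1.54 at 3 UMIs for progenitor markers. Without a mitochondrial limit the sign turned for Itga1 (0.14), Fbn1 (0.28), Col1a2 (0.30), Col3a1 (0.10), Mrc2 (0.19), Gulp1 (0.27), Bmp1 (0.060), Rbfox2 (0.11), Nid1 (0.56), Adamts5 (0.18), Efemp1 (0.049), Gpx8 (0.037) and Ebf3 (0.069). With 1 well left out Mir6236 ran from -5.50 to 2.56 and Dmtn from -6.79 to 0.97, both turned without DN2a well 1, and Zfp318 from -0.48, without DN2b well 2, to 4.11.

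Further alternatives were chosen after seeing the data. Cells without any T, ILC, myeloid or stromal marker gave 26 higher and 72 lower genes, and turned Cd7 (-0.073), Cd34 (0.061) and Rbfox2 (0.12). Cells over 30% mitochondrial UMIs gave 36 and 32 genes, Bcl11b at 1.38, T markers at 1.33, ILC markers at 0.32, myeloid at -0.69, stromal at -0.037 and progenitor markers at -0.34, and turned Cd226 (-0.0094), Col1a2 (0.062), Mrc2 (0.018) and Nid1 (0.31). The cause of these changes was not tested. No paired analysis was possible because each condition was 1 library.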
